A study of Mus musculus with 3 samples.

Results

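The cytokine and growth factor receptors described here are 10 genes, Il17ra, Il1rl2, Il4ra, Il10ra, Il6ra, Ifngr1, Csf1r, Csf2ra, Csf2rb and Tgfbr2, chosen by name from the 13242 genes of a single-cell count table. Each was found in the table. The cells were labelled as macrophages and were sorted from the quadriceps of mice 1 week after surgery that removed a volume of muscle. The wound received polycaprolactone (PCL, a synthetic polyester), urinary bladder matrix (UBM, a decellularised extracellular matrix scaffold) or saline. All 3 groups shared the surgery, the muscle, the time point and the sort, and each was 1 library made with a 10x droplet kit that reads the 3′ end of transcripts. The labels do not state strain, sex, age, the number of mice in each library or the sort gate.

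Cytokine receptors are surface proteins that mostly work as pairs of chains, in which one chain gives the specificity for a ligand and a partner chain, often shared between cytokines, completes the signalling complex. Most chains of the interleukin, interferon and colony-stimulating factor receptors signal through Janus kinases and STAT proteins. The IL-17 and IL-36 receptors act through adaptor proteins, the CSF-1 receptor is itself a tyrosine kinase, and the TGF-β receptors are serine/threonine kinases that act on SMAD proteins. In wounded muscle, IL-4 and IL-10 signals are known to favour repair-associated macrophage states, interferon-γ favours inflammatory states, and CSF-1 sustains macrophage survival.

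With 1 library for each treatment, no test, p-value or standard error could be computed, and mice, treatments and libraries cannot be told apart. Values are molecule counts (UMIs) summed over a library or a cluster and given per 1000000 UMIs (CPM), with exact 95% Poisson intervals. Ratios of CPM have exact conditional binomial 95% intervals, and all intervals cover counting error only. The PCL library held 1753 cells and 11006118 UMIs, the UBM library 2280 cells and 14586276 UMIs, and the saline library 341 cells and 1888343 UMIs. The saline intervals are therefore the widest, and the floor of 3 counts used here for a gene with 0 UMIs corresponds to 0.273 CPM in the PCL library, 0.206 CPM in the UBM library and 1.59 CPM in the saline library. All 9 macrophage markers listed were seen in every library, with a summed level of 23409 CPM in PCL, 16401 CPM in UBM and 32021 CPM in saline cells. Lyz2 alone made up 16291.8 CPM of this sum in PCL, 6124.8 CPM in UBM and 18914.5 CPM in saline cells. Adgre1, Cd68, C1qa, C1qb and C1qc were higher in UBM than in PCL cells, and Lyz2, Fcgr1, Mertk and Cd14 were lower. Muscle fibre markers summed to 29.0, 39.6 and 634 CPM in the PCL, UBM and saline libraries, and neutrophil markers to 1642, 110 and 243 CPM. Their part in the results was not tested. Ribosomal protein genes took 12.8%, 19.5% and 15.8% of UMIs in the same order, and 6 cell barcodes occurred in more than 1 library.

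The authors' 9 clusters carry the names F1, F2, FP1, R1, R2, R3, RP1, RP2 and RP3, whose letters are not explained in the sources used here. The libraries filled them unequally. FP1 held 1036 PCL, 99 UBM and 72 saline cells, and F1 held 455 PCL, 43 UBM and 64 saline cells. R2 held 254 UBM cells and 0 cells of the other libraries, while RP1 held 37 PCL, 574 UBM and 13 saline cells and RP2 held 58 PCL, 640 UBM and 38 saline cells. RP3 was the most evenly filled, with 92 PCL, 200 UBM and 68 saline cells. F2 had only 56 cells and a neutrophil marker sum of 50165 CPM beside a macrophage marker sum of 18443 CPM. The clusters were made from these same cells and genes, so levels across them are a description and no test.

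The promoters of 3 members are shown because, among the members with a promoter entry and at least 20 CPM over all cells, their levels across the clusters ran most together (Il4ra and Tgfbr2) or most apart (Il4ra and Csf2ra). Over the 9 clusters, log2(CPM + 10) of Il4ra had a Pearson correlation of 0.63 with Tgfbr2 and of -0.86 with Csf2ra, as a description over clusters that share libraries. Of the 10 members, 6 had an entry in the RefSeq promoter table (GRCm38.p6), and the 250 bases before the RefSeq transcription start were read from it, 5′ to 3′ on the gene's strand. Capitals mark GAGGAA on either strand, the core of the purine-rich sequence bound by PU.1, a factor that macrophages need.
Il4ra, chr7:125552021-125552270, plus strand: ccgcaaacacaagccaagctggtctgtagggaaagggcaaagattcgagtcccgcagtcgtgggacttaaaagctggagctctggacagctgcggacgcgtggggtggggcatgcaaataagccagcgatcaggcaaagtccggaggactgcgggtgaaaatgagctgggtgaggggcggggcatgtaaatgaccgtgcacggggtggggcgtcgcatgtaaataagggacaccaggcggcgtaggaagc
Tgfbr2, chr9:116175364-116175613, minus strand: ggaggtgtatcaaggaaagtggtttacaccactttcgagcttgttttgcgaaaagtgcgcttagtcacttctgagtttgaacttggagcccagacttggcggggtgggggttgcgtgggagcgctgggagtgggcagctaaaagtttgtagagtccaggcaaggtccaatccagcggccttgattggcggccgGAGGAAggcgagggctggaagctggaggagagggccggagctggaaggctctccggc
Csf2ra, chr19:61228419-61228668, minus strand: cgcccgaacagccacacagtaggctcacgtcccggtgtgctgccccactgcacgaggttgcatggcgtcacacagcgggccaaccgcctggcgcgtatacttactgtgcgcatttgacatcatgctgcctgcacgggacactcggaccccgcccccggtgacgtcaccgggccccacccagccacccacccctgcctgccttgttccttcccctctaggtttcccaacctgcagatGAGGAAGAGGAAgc
GAGGAA stood 57 bases before the start of Tgfbr2 and at 14 and 8 bases before that of Csf2ra, where both copies adjoin, and these letters were not in the Il4ra window. Il6ra also held it, 70 bases before its start, so 3 of the 6 windows had GAGGAA, against 23.3% of 32851 promoter windows of the same length. The STAT motif TTCNNNGAA, and its form with 1 more N that STAT6 prefers, read the same on both strands and were found in 0 of the 6 windows, against 7.02% and 5.85% of all windows. These matches are a description of the letters and show no binding. The GENCODE gene models of Il4ra and Csf2ra start upstream of the RefSeq start, so part of each window lies inside the annotated gene, and for Csf2ra that part holds the GAGGAA at 8 bases and some of that at 14.

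Across the libraries, the members fell into a few patterns (the plot of CPM by library). Il4ra was highest in UBM cells. Il17ra, Csf2ra and Csf2rb were lowest in UBM cells and overlapped between PCL and saline cells, and Csf1r, Il6ra, Ifngr1, Il10ra and Tgfbr2 were highest in saline cells. A member was counted as apart where its CPM differed at least 1.5-fold and reached 20 CPM in the higher library, which is a rule of size and not a test. Il1rl2 never reached 20 CPM, so 9 members were counted. PCL over UBM had 2 members higher and 1 lower, where 17.8% and 8.35% of 5279 genes were higher and lower (26.1% in all), and the median log2 ratio was 0.45 over the members and 0.17 over all genes. PCL over saline had 0 higher and 3 lower, where 12.2% and 10.4% of 5420 genes were higher and lower (22.5% in all), with medians of -0.33 and 0.07. UBM over saline had 1 higher and 5 lower, where 8.78% and 17.9% of 5328 genes were higher and lower (26.7% in all), with medians of -0.60 and -0.09. The contrasts share libraries and are not independent of each other. These splits of all genes depend on scaling. With trimmed mean of M values scaling, PCL over UBM had 692 genes higher and 619 lower in place of 938 and 441, and UBM over saline had 754 higher and 642 lower in place of 468 and 956.

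**Figure D1:**
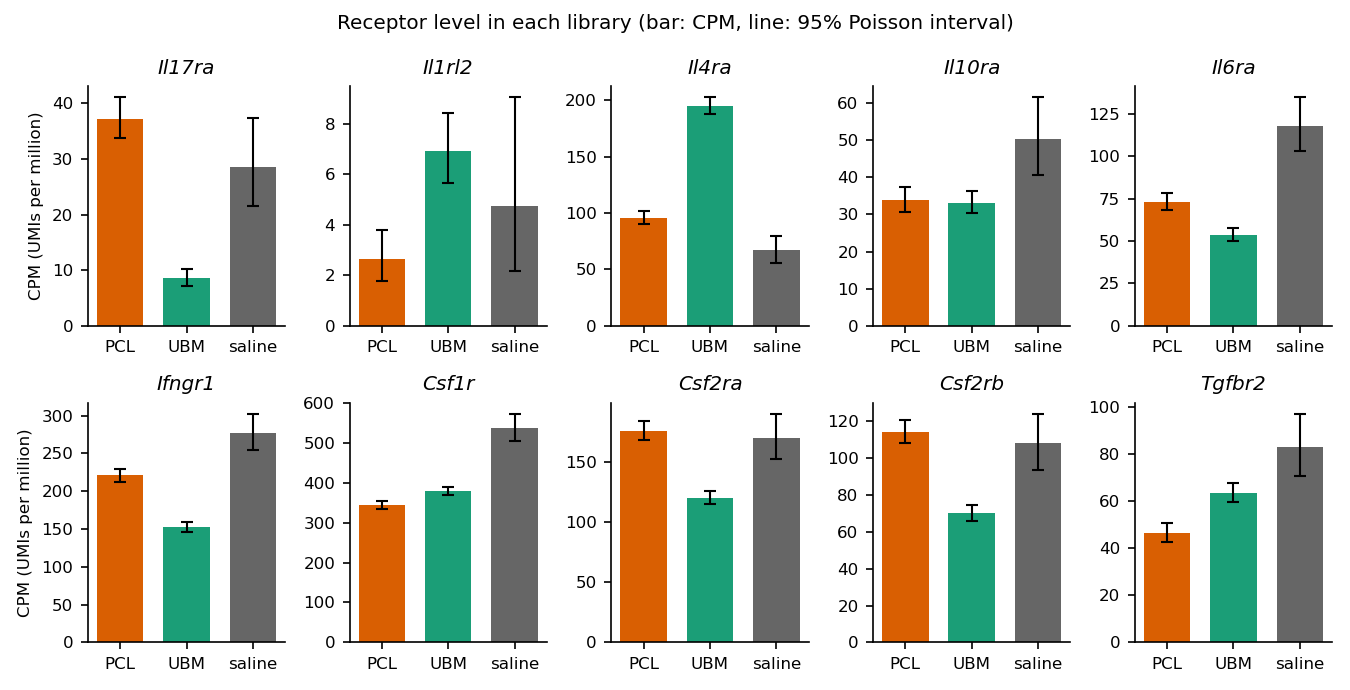
Level of each of the 10 receptor genes in the PCL, UBM and saline libraries, in CPM, 1 bar per library with its exact 95% Poisson interval, which covers counting error only. Il4ra was highest in the UBM library (195 CPM) and Il17ra was lowest there (8.64 CPM).

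**Figure D2:**
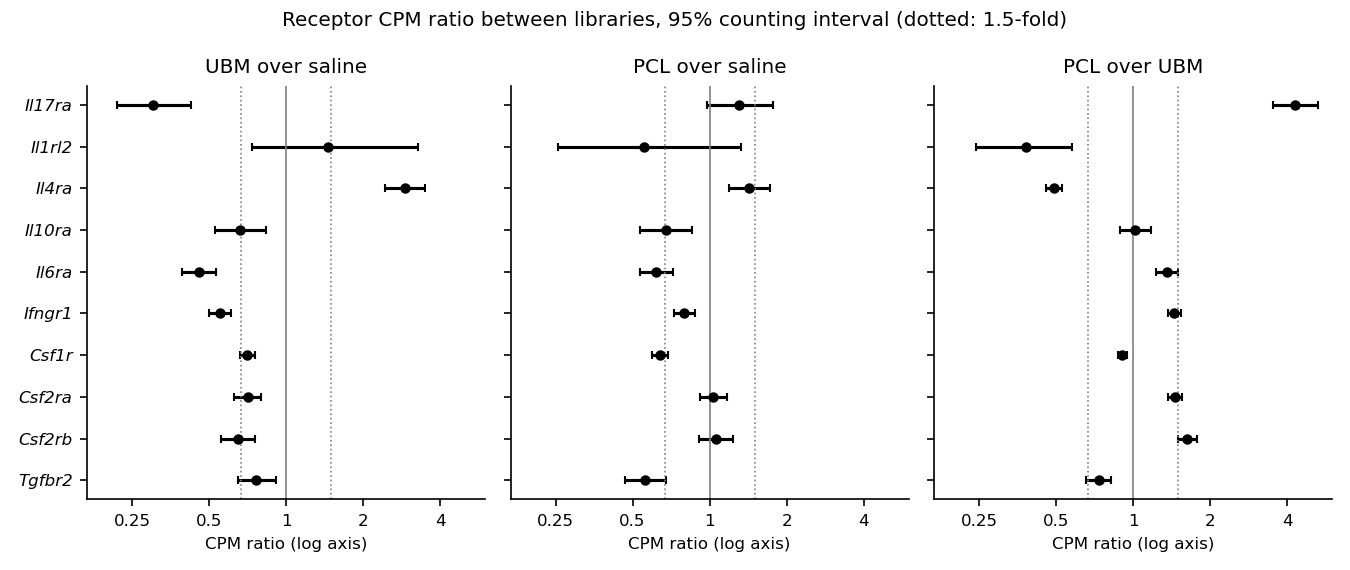
Ratio of CPM of each receptor gene for PCL over UBM, PCL over saline and UBM over saline, on a log axis, with exact 95% conditional binomial intervals for counting error. The 2 ratios farthest from 1 among genes with at least 20 CPM were those of Il17ra, 4.31 for PCL over UBM and 3.31-fold lower for UBM over saline.

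Il17ra encodes the chain shared by the receptors for IL-17A and IL-17F and lies at chr6:120463247-120487559 on the plus strand of GRCm38. Its level was 37.3 CPM in PCL cells (33.7 to 41.0, 410 UMIs), 8.64 CPM in UBM cells (7.20 to 10.3, 126 UMIs) and 28.6 CPM in saline cells (21.5 to 37.3, 54 UMIs). UBM cells stood apart from both of the others, whose intervals overlap. The level was 4.31-fold higher in PCL than in UBM cells (3.52 to 5.31) and 3.31-fold lower in UBM than in saline cells (2.36 to 4.59). PCL over saline gave 1.30 (0.979 to 1.76). Across 8 alternative settings, the PCL over UBM ratio lay between 3.83 and 4.93.

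The lower Il17ra level in UBM cells was also measured inside single clusters. Within FP1 it was 42.6 CPM in PCL, 7.56 CPM in UBM and 32.8 CPM in saline cells, from 278, 6 and 16 UMIs. Within RP3 it was 25.8 CPM in PCL, 10.3 CPM in UBM and 33.5 CPM in saline cells, from 15, 10 and 9 UMIs. In RP2, which has too few saline cells, it was 20.5 CPM in PCL and 4.64 CPM in UBM cells. PCL over UBM was thus 5.64 (2.56 to 15.5) in FP1, 2.51 (1.05 to 6.24) in RP3 and 4.41 (1.56 to 11.1) in RP2, so UBM was the lower one in each of the 3 clusters with at least 50 cells of each. Over all libraries, Il17ra was highest in F2 (68.9 CPM, 20 UMIs) and FP1 (38.4 CPM), which overlap in their intervals. It was lowest in R2 (6.01 CPM), which R1, RP2 and RP1 overlap.

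Il1rl2 encodes the ligand-binding chain of the IL-36 receptor. It was near the limit of what these libraries can show, at 2.63 CPM in PCL cells (29 UMIs), 6.92 CPM in UBM cells (101 UMIs) and 4.77 CPM in saline cells (9 UMIs). It was 2.63-fold lower in PCL than in UBM cells (1.72 to 4.12), and the saline interval of 2.18 to 9.05 CPM spans both of the other levels. After thinning each cell to 2500 UMIs, a UMI was seen in 0.438% of PCL, 1.32% of UBM and 1.91% of saline cells, and without thinning in 1.54%, 4.17% and 2.64%. Among clusters it was highest in R2 (15.3 CPM), R3 (12.2 CPM) and F2 (10.3 CPM), which overlap. The F2 level rests on 3 UMIs, and its interval (2.13 to 30.2 CPM) overlaps those of all other clusters but F1. After thinning, 1.63% of R2, 1.83% of R3, 1.82% of R1 and 1.89% of RP1 cells held a UMI, so R2 and R3 did not stand above R1 and RP1. F1 had 1 UMI in 562 cells. Of the ligands of this receptor, Il1f9 (IL-36γ) had 116 UMIs in PCL, 5 in UBM and 6 in saline cells. In PCL cells, 17 of these UMIs were in FP1 (2.61 CPM), 4 in F1 (1.39 CPM) and 0 in RP2 and RP3. The rest lay in clusters with fewer than 50 PCL cells each. Il1rap, the accessory chain of the receptor, had 168, 116 and 21 UMIs. Thinned cells that held a UMI of both Il1rl2 and Il1rap numbered 0 in each library, so the pair was not detectable at this depth.

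Il4ra encodes the α chain that binds IL-4 and takes part in the IL-13 receptor, and lies at chr7:125552120-125579474 on the plus strand of GRCm38. Its level was 96.0 CPM in PCL cells (90.3 to 102, 1057 UMIs), 195 CPM in UBM cells (188 to 202, 2847 UMIs) and 67.3 CPM in saline cells (56.1 to 80.0, 127 UMIs). The 3 intervals do not overlap. UBM was 2.90-fold higher than saline (2.43 to 3.49), PCL over saline was 1.43 (1.19 to 1.73), and PCL was 2.03-fold lower than UBM (1.89 to 2.18). Thinned to 2500 UMIs, 20.3% of PCL, 32.7% of UBM and 17.6% of saline cells held a UMI, and without thinning 38.3%, 48.2% and 28.4%. Cells with at least 3 UMIs numbered 85, 392 and 6.

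Of the Il4ra UMIs of the UBM library, 64.9% were in R2 and RP1, clusters with few PCL or saline cells. R2 was the highest cluster at 521 CPM (491 to 552), followed by RP1 at 255 CPM (237 to 274) and RP3 at 203 CPM (183 to 225), and these 3 do not overlap with their neighbours in the order. F2 (127 CPM), F1 (121 CPM) and RP2 (109 CPM) overlap, and FP1 (75.0 CPM), R3 (66.8 CPM) and R1 (50.7 CPM, the lowest) each overlap the next. R2 held 39.6% of the Il4ra UMIs of the UBM library and 14.8% of all its UMIs. Without R2 and RP1, the level was 95.8 CPM in PCL (90.0 to 102), 103 CPM in UBM (96.3 to 109) and 67.3 CPM in saline cells (56.0 to 80.2), so PCL and UBM then overlap and both stay above saline. Inside clusters, PCL over UBM was 0.857 (0.665 to 1.12) in FP1, 1.11 (0.787 to 1.52) in RP2 and 0.916 (0.727 to 1.15) in RP3, all with intervals that include 1. Against saline within RP3, PCL was 1.85-fold higher (1.23 to 2.86) and UBM 2.02-fold higher (1.38 to 3.07), at 207 CPM, 226 CPM and 112 CPM in PCL, UBM and saline cells. Within FP1 the ratios to saline were 1.21 (0.839 to 1.82) for PCL and 1.42 (0.910 to 2.25) for UBM, with intervals that include 1. After thinning, 70.7% of R2 cells held a UMI of Il4ra, against 13.0% of R1 cells, clusters with median depths of 8365 and 7374 UMIs.

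The chains that join IL-4Rα did not share its order across libraries. Il2rg, the common γ chain, was 99.4 CPM in PCL, 45.7 CPM in UBM and 76.8 CPM in saline cells, so it was 2.17-fold higher in PCL than in UBM cells (1.97 to 2.40). Il13ra1, which completes the other IL-4 receptor and binds IL-13, was 49.2, 17.3 and 35.0 CPM, 2.85-fold higher in PCL than in UBM cells (2.45 to 3.32). Both partners were thus lowest in the UBM library, where Il4ra was highest. Thinned cells with a UMI of both Il4ra and Il13ra1 made up 3.38% of PCL, 1.79% of UBM and 1.53% of saline cells, where the product of the shares gives 2.61%, 1.54% and 1.68%. For Il4ra and Il2rg they were 4.13%, 4.11% and 3.44%, where the product gives 4.33%, 3.53% and 2.41%.

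**Figure D3:**
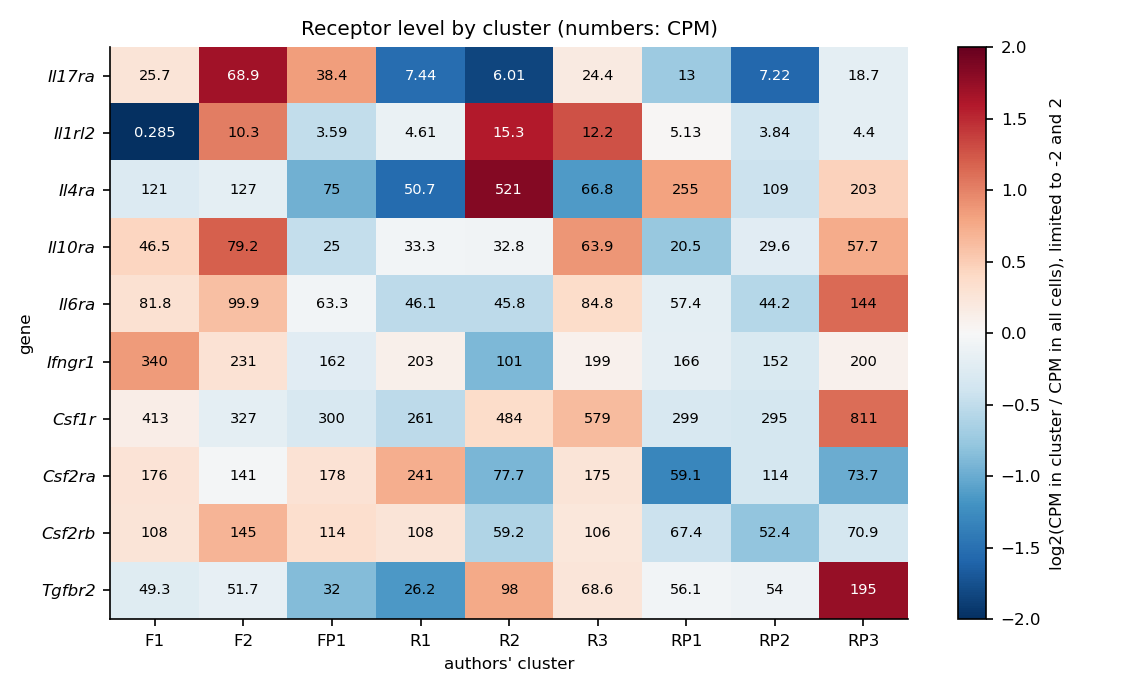
Level of each receptor gene in the authors' 9 clusters, all libraries pooled, as log2 of the ratio to the gene's level over all cells, with the CPM printed in each cell of the map. R2 stands out for Il4ra (521 CPM) and RP3 for Csf1r (811 CPM) and Tgfbr2 (195 CPM). RP3 was also highest for Il6ra (144 CPM), where the interval of F2 overlaps.

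Il10ra, the ligand-binding chain for IL-10, was at 33.9 CPM in PCL cells (30.5 to 37.5), 33.2 CPM in UBM cells (30.3 to 36.3) and 50.3 CPM in saline cells (40.7 to 61.5). PCL and UBM overlap, with a ratio of 1.02 (0.890 to 1.17), and both were lower than saline, 1.48-fold (1.17 to 1.86) for PCL and 1.52-fold (1.20 to 1.89) for UBM. The calls lie at the 1.5-fold limit, and 4 of 8 alternative settings put each of the saline contrasts on the other side of it. Across clusters its levels were from 20.5 CPM in RP1 to 79.2 CPM in F2, with each neighbour in the order overlapping the next. Its partner Il10rb was 196, 217 and 178 CPM, and its ligand Il10 was 28.0, 28.9 and 38.1 CPM, in PCL, UBM and saline cells.

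Il6ra encodes the chain that binds IL-6 and lies at chr3:89864059-89913196 on the minus strand of GRCm38. Its level was 73.1 CPM in PCL cells (68.2 to 78.4), 53.7 CPM in UBM cells (49.99 to 57.6) and 118 CPM in saline cells (103 to 135). The 3 intervals do not overlap, with PCL 1.61-fold lower than saline (1.39 to 1.88) and UBM 2.20-fold lower (1.89 to 2.56). RP3 had the highest level (144 CPM, 127 to 163), which F2 overlaps (99.9 CPM, 66.9 to 143). Within RP3 the level was 124 CPM in PCL, 109 CPM in UBM and 313 CPM in saline cells. There PCL was 2.52-fold lower than saline (1.82 to 3.50) and UBM 2.86-fold lower (2.12 to 3.85). In F1 PCL and saline cells had 85.1 and 91.1 CPM, a ratio of 0.934 (0.644 to 1.395), and in FP1 64.5 and 75.8 CPM, a ratio of 0.852 (0.608 to 1.23), so the intervals include 1 in both. UBM over saline in FP1 was 0.599 (0.368 to 0.974), an interval below 1. Without RP3 the library levels were 70.3 CPM in PCL, 49.7 CPM in UBM and 85.8 CPM in saline cells.

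Il6st, the signalling chain gp130 that IL-6Rα needs, was at 26.2 CPM in PCL, 61.7 CPM in UBM and 28.6 CPM in saline cells. It was 2.36-fold lower in PCL than in UBM cells (2.06 to 2.70) and 2.16-fold higher in UBM than in saline cells (1.64 to 2.89), whereas Il6ra was lowest in UBM cells. Within FP1 it was 27.4, 63.0 and 26.6 CPM in PCL, UBM and saline cells, and within RP3, with 17, 41 and 18 UMIs, it was 29.3, 42.2 and 67.0 CPM. The UBM library was thus the highest of the 3 in FP1 but not in RP3. Il6 itself was 10.8 CPM in PCL, 29.3 CPM in UBM and 26.5 CPM in saline cells, 2.71-fold lower in PCL than in UBM cells (2.20 to 3.35).

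Ifngr1, the ligand-binding chain for interferon-γ, was at 221 CPM in PCL cells (212 to 230), 153 CPM in UBM cells (146 to 159) and 277 CPM in saline cells (254 to 302). The 3 intervals do not overlap, and UBM was 1.82-fold lower than saline (1.65 to 2.002), while PCL was 1.26-fold lower than saline (1.14 to 1.38). It was highest in F1 (340 CPM, 321 to 360), lowest in R2 (101 CPM, 88.3 to 116), and between 152 and 231 CPM in the other 7 clusters, whose neighbours overlap. UBM was lower than saline inside both clusters that could be compared, with 137 and 215 CPM in FP1 and 161 and 294 CPM in RP3. Ifngr2, the second chain, differed less, at 128 CPM in PCL, 112.5 CPM in UBM and 132 CPM in saline cells. Thinned cells with a UMI of both chains were 11.9% of PCL, 7.22% of UBM and 9.92% of saline cells, where the product of the 2 shares gives 11.2%, 7.44% and 11.4%.

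Csf1r, the receptor for CSF-1 and IL-34 and a defining gene of macrophages, was at 344 CPM in PCL cells (333 to 355), 378 CPM in UBM cells (368 to 388) and 538 CPM in saline cells (505 to 572). The intervals do not overlap, and PCL was 1.56-fold lower than saline (1.46 to 1.68), UBM 1.42-fold lower than saline (1.33 to 1.52) and PCL 1.10-fold lower than UBM (1.05 to 1.15). RP3 had the highest level (811 CPM, 770 to 853), then R3 (579 CPM) and R2 (484 CPM), each apart from its neighbours. The other 6 lay between 261 and 413 CPM. Without RP3, R3 and R2 the level was 328 CPM in PCL, 282 CPM in UBM and 416 CPM in saline cells, so UBM was then the lowest. Within RP3 it was 638, 841 and 1076 CPM in PCL, UBM and saline cells, and PCL was 1.69-fold lower than saline there (1.44 to 1.97). Thinned to 2500 UMIs, 82.7% of RP3 cells and 46.5% of F2 cells held a UMI, in clusters with the same median depth of 4345.5 UMIs. No cluster lacked macrophage markers, so the share that free RNA alone would give could not be measured. Csf1, its ligand, had 99 UMIs in PCL, 28 in UBM and 4 in saline cells.

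Csf2ra and Csf2rb encode the specific chain and the common β chain of the GM-CSF receptor. Csf2ra was 176 CPM in PCL cells (168 to 184), 120.1 CPM in UBM cells (115 to 126) and 170.0 CPM in saline cells (152 to 190). Csf2rb was 114 CPM in PCL cells (108 to 121), 70.0 CPM in UBM cells (65.8 to 74.4) and 108 CPM in saline cells (93.7 to 124). Both chains were lowest in UBM cells and overlapped between PCL and saline, with PCL over UBM at 1.46 (1.37 to 1.56) for Csf2ra and 1.63 (1.4999 to 1.77) for Csf2rb. Only the second passes 1.5-fold, and 2 of 8 alternative settings moved each of them across that limit. UBM was 1.42-fold lower than saline for Csf2ra (1.25 to 1.59) and 1.54-fold lower for Csf2rb (1.32 to 1.80). In this contrast, 5 of 8 alternative settings moved Csf2rb under the 1.5-fold limit, and 1 of 8 moved Csf2ra past it. With the level averaged equally over FP1 and RP3 alone, the Csf2rb ratio of UBM over saline was 1.10, the other direction.

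The 2 chains had similar orders across clusters. Csf2ra was highest in R1 (241 CPM, 224 to 260), then FP1 (178 CPM), F1 (176 CPM) and R3 (175 CPM), which overlap. It was lowest in RP1 (59.1 CPM), which RP3 (73.7 CPM) and R2 (77.7 CPM) overlap. Dendritic cell markers summed to 277 CPM in R1 and 284 CPM in R3 and to between 13.3 and 104 CPM in the other 7 clusters. Of the 5 dendritic cell markers measured, 5 were seen in R1, but only 2 in R3, where 3 were at 0. NK or T cell markers summed to 166 CPM in R1. The part of these markers in the Csf2ra levels was not tested. Csf2rb was highest in F2 (145 CPM), FP1 (114 CPM), R1 (108 CPM), F1 (108 CPM) and R3 (106 CPM), which overlap. It was lowest in RP2 (52.4 CPM), which R2, RP1 and RP3 overlap. Over the 9 clusters their log2(CPM + 10) values had r = 0.72. Thinned cells with a UMI of both chains were 8.57% of PCL, 3.49% of UBM and 5.34% of saline cells, where the product of the shares gives 7.87%, 3.13% and 6.77%. Inside RP2 Csf2rb was 1.82-fold higher in PCL than in UBM cells (1.19 to 2.69), at 87.7 and 48.2 CPM, whereas in FP1 the ratio was 1.23 (0.973 to 1.58) and in RP3 0.791 (0.513 to 1.20). Csf2rb2, a neighbouring near-copy that in mice serves IL-3, was 25.1, 24.1 and 30.2 CPM in PCL, UBM and saline cells. Csf2rb and Csf2rb2 share 892 of the 4851 windows of 50 bases in the Csf2rb transcript, but 0 of 551 in its last 600 bases, the end that this kit reads.

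Tgfbr2, the ligand-binding kinase of the TGF-β receptor, lies at chr9:116084293-116175360 on the minus strand of GRCm38. It was at 46.7 CPM in PCL cells (42.8 to 50.9), 63.6 CPM in UBM cells (59.6 to 67.9) and 83.1 CPM in saline cells (70.6 to 97.2). The intervals do not overlap, and PCL was 1.78-fold lower than saline (1.48 to 2.13), UBM 1.31-fold lower than saline (1.10 to 1.55) and PCL 1.36-fold lower than UBM (1.22 to 1.52). RP3 stood highest (195 CPM, 175 to 216) and R2 next (98.0 CPM), both apart from their neighbours, and FP1 (32.0 CPM) and R1 (26.2 CPM) were the lowest pair. Within RP3 PCL, UBM and saline cells had 208, 172 and 246 CPM, so there PCL was not below UBM, with a ratio of 1.21 (0.951 to 1.54). In FP1 they had 31.6, 27.7 and 45.0 CPM, and PCL over UBM was 1.14 (0.732 to 1.86). FP1 held 59.1% of PCL cells and 4.34% of UBM cells, and without RP3 and R2 the level was 37.7 CPM in PCL, 47.9 CPM in UBM and 56.2 CPM in saline cells. With FP1 and RP3 weighted equally, PCL over saline was 0.826, no longer past 1.5-fold, and PCL over UBM was 1.20.

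Tgfbr1, the kinase that TGFBR2 activates, was 35.1 CPM in PCL, 28.3 CPM in UBM and 69.4 CPM in saline cells, 1.98-fold lower in PCL (1.61 to 2.42) and 2.45-fold lower in UBM (1.997 to 2.99) than in saline cells. RP3, the cluster with the highest Tgfbr2, held 4 Tgfbr1 UMIs in PCL, 15 in UBM and 0 in saline cells, and FP1 held 41.7, 22.7 and 86.0 CPM of Tgfbr1. With the libraries pooled, Tgfbr1 was highest in R3 (120.3 CPM, 104 to 138), then FP1 (42.5 CPM). RP3 had the lowest level (10.4 CPM, 6.29 to 16.3), which R2 overlaps (11.1 CPM, 7.11 to 16.5). The ligand Tgfb1 was 214, 206 and 241 CPM in PCL, UBM and saline cells, Tgfb3 was 1.73, 7.68 and 4.77 CPM, and Tgfb2 had 3, 1 and 1 UMIs.

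**Figure D4:**
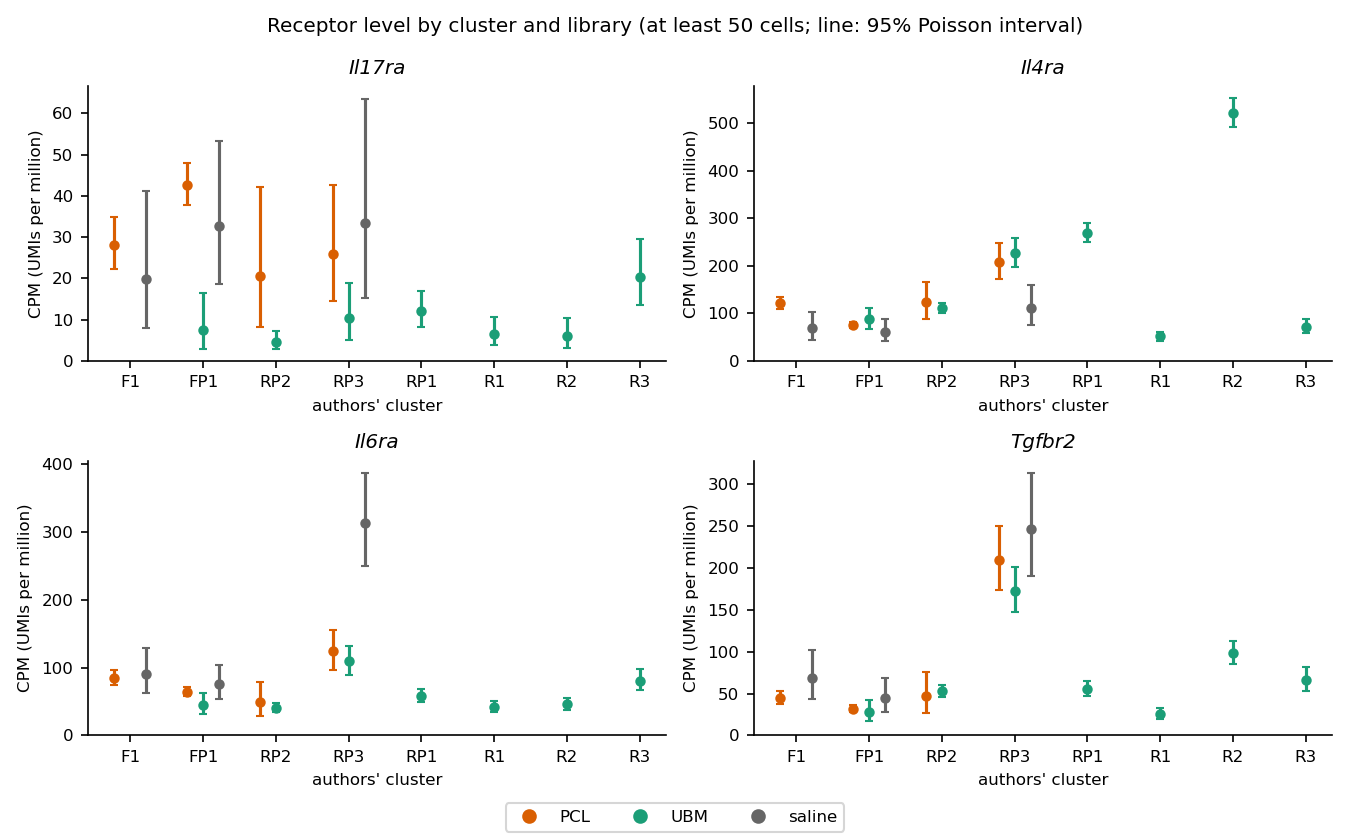
Level of Il17ra, Il4ra, Il6ra and Tgfbr2 by cluster and library, in CPM, where the library had 50 cells or more in the cluster. Lines are exact 95% Poisson intervals for counting error. The Il17ra levels give PCL over UBM ratios above 1 in FP1, RP2 and RP3 (5.64, 4.41 and 2.51). The Il4ra levels give ratios near 1 (0.857, 1.11 and 0.916).

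Within clusters the members past 1.5-fold, of 9 counted, are set here beside the share of all genes that were higher and lower, and in all. PCL over UBM in FP1 had 2 higher and 0 lower, against 18.4% and 12% of all genes (30.4%). In RP2 it had 2 higher and 1 lower, against 22.2% and 13% (35.2%), and in RP3 1 higher and 0 lower, against 27.1% and 7.52% (34.7%). The members apart were Il17ra in all 3 clusters, Il10ra in FP1 and RP2 and Csf2rb in RP2. PCL over saline in F1 had 1 higher and 1 lower, against 22.4% and 13.2% (35.6%), in FP1 0 of either, against 14.1% and 12% (26.1%), and in RP3 1 higher and 2 lower, against 24.2% and 18.6% (42.8%). Il4ra was the higher one in F1 and RP3. UBM over saline had 0 higher and 5 lower in FP1, against 15.7% and 20.2% (35.9%), and 1 higher and 3 lower in RP3, against 15.3% and 30.1% (45.4%). The 5 lower members in FP1 were Il17ra, Il10ra, Il6ra, Ifngr1 and Tgfbr2, and the 3 in RP3 were Il17ra, Il6ra and Ifngr1.

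Partner chains, signalling proteins and other receptors were counted by the same size rule, for which 17.8% and 8.35% of all genes were higher and lower for PCL over UBM, 12.2% and 10.4% for PCL over saline, and 8.78% and 17.9% for UBM over saline. Of 10 partner chains 7 were counted, with 2 higher and 1 lower for PCL over UBM (median log2 ratio 0.19), 0 and 1 for PCL over saline (-0.05), and 1 and 3 for UBM over saline (-0.33). Of 19 ligands 3 were counted, with 0 higher and 1 lower, 0 and 1, and 0 and 0 in the same contrasts. Il17a, Il4, Il13, Ifng, Il34 and Csf2 were among 12 that the count table did not hold. Of 17 signalling proteins 10 were counted for PCL over UBM, with 2 higher and 1 lower (0.31), and 11 for each saline contrast, with 0 and 2 for PCL (-0.08) and 1 and 3 for UBM (-0.42). Stat3, which acts for IL-6 and IL-10, was 101 CPM in PCL, 84.6 CPM in UBM and 155 CPM in saline cells. Jak2, a kinase bound by the interferon-γ and GM-CSF receptors, was highest in UBM cells, at 22.3, 41.2 and 25.9 CPM. Myd88, the adaptor of the IL-36 receptor, was 58.1, 32.4 and 49.8 CPM. Stat6 (52.8, 41.1 and 43.4 CPM), Smad4 (34.2, 27.7 and 25.4 CPM) and Irak4 (27.0, 25.4 and 36.5 CPM) were not 1.5-fold apart between any pair of libraries. Il1rap and Tgfbr3, a co-receptor for TGF-β with 2, 16 and 0 UMIs in PCL, UBM and saline cells, were the partner chains under 20 CPM. Il17rc was not in the count table.

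Of 8 feedback inhibitors 4 were counted for PCL over saline, with 1 higher and 3 lower (median -0.76), 3 for UBM over saline, with 0 and 3 (-1.59), and 4 for PCL over UBM, with 1 and 0 (0.31). Of all genes, 10.4% were lower for PCL over saline and 17.9% for UBM over saline, and 17.8% were higher for PCL over UBM. The 3 lower genes of both saline contrasts were Socs3, Zc3h12a and Skil. Socs3, which blocks gp130 signalling, was 140 CPM in PCL, 139 CPM in UBM and 264 CPM in saline cells. Zc3h12a, a nuclease that limits IL-17 responses, was 34.7, 23.7 and 73.6 CPM, and Skil, a repressor of SMAD proteins, was 87.1, 44.1 and 132 CPM. Socs2 was the higher gene for PCL over saline, at 20.6 CPM in PCL, 19.5 CPM in UBM and 10.6 CPM in saline cells (227, 285 and 20 UMIs). For UBM over saline it was under 20 CPM and was not counted. Socs1, under 20 CPM throughout, was 7.90, 14.2 and 7.41 CPM (87, 207 and 14 UMIs).

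Among 28 other cytokine receptors, 12 were counted for PCL over UBM, with 3 higher and 2 lower (median -0.08), 12 for PCL over saline, with 3 and 1 (0.11), and 11 for UBM over saline, with 1 and 3 (0.12). The shares of all genes that were higher and lower were 17.8% and 8.35%, 12.2% and 10.4%, and 8.78% and 17.9% in these contrasts. Tnfrsf1b, a TNF receptor, was 152 CPM in PCL, 62.3 CPM in UBM and 127 CPM in saline cells, and Il11ra1, the IL-11 receptor, was 47.4, 79.3 and 29.7 CPM. Lifr, the receptor for leukaemia inhibitory factor, was 35.3, 27.3 and 66.7 CPM. Ifnar1, a chain of the type I interferon receptor, was 94.9, 46.3 and 80.0 CPM, Il3ra was 24.99, 46.3 and 31.8 CPM, and Il7r was 68.8, 45.9 and 42.9 CPM. Il1r2, a decoy receptor for IL-1 that neutrophils also express, was 24.4, 2.19 and 6.35 CPM. Among 23 other growth factor receptors, 10 were counted for PCL over UBM, with 5 higher and 1 lower (0.52), 11 for PCL over saline, with 2 and 3 (-0.06), and 9 for UBM over saline, with 1 and 3 (-0.24). Met, the receptor for hepatocyte growth factor, was 22.3, 2.19 and 5.30 CPM in PCL, UBM and saline cells. Axl, a receptor that takes part in the uptake of dead cells, was 49.0, 14.8 and 111 CPM, and its relative Mertk was 65.1, 33.2 and 89.5 CPM. Igf2r was 87.5, 49.0 and 26.5 CPM, Fgfr1 was 12.4, 25.1 and 68.8 CPM, and Eng, a co-receptor for TGF-β, was 9.27, 15.5 and 21.7 CPM. Of the semaphorin and VEGF co-receptors, Nrp1 (175, 208 and 183 CPM) was not past the limit in any contrast and Nrp2 (163, 102 and 120.2 CPM) was past it in PCL over UBM alone.

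For each member with at least 20 CPM over all cells, the genes with the most similar levels across the 9 clusters were sought among 4925 genes, by Pearson correlation of log2(CPM + 10). Il4ra was most like Bmp2k (r = 0.975), Gja1 (0.974) and Map3k2 (0.970), and Tgfbr2 most like Mospd2 (0.967) and Igfbp4 (0.963). Csf1r was most like Dip2b (0.961), Serinc3 (0.960) and P2rx7 (0.930), Csf2ra most like Cd52 (0.960), Dock8 (0.939) and Eif3l (0.930), and Csf2rb most like Fgr (0.936), Bcl2a1a (0.934) and Il1b (0.930). Il10ra was most like Ddx52 (0.958), Hmha1 (0.933) and Mark2 (0.916), and Il17ra most like Rcor1 (0.946), Sephs2 (0.944) and Msrb1 (0.942). Il6ra was most like Ncoa3 (0.946) and Ankrd44 (0.931), and Ifngr1 most like Gm8797 (0.921), Fam129a (0.921) and Bcl10 (0.901). With 9 clusters that share libraries and depth, these values order the genes and show no link between them.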

How the data were processed

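The deposited table holds raw UMI counts of 13242 genes in 4374 cells, whole numbers up to 1880, and another deposited file assigns every cell to a condition and to one of the authors' clusters. Its condition names were matched to the labels by meaning. Per the labels' protocols and the submitters' processing notes, libraries were counted with Cell Ranger (no version given) and clustered with Seurat version 2 after pooling the conditions. The notes name hg38, a human build, but the symbols are mouse symbols. No label states filters on cells, the treatment of doublets or the use of strand in counting. Whether reads of Il4ra, Il10ra, Il6ra and Csf1r were kept apart from those of the genes annotated opposite to them is therefore not known here. Il1rl2, Il10ra, Csf1r and Csf2rb also overlap genes on the same strand, which strand cannot separate. So do the partner chains Il2rg, Il10rb, Csf2rb2 and Tgfbr3.

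Counts were summed over a library or cluster and divided by the total UMIs to give CPM, in Python 3.11.15 with numpy 2.4.6, scipy 1.17.1 and pandas 2.3.3. Poisson and conditional binomial 95% intervals are exact, shares of cells have Clopper-Pearson intervals, and a count of 0 was given a floor of 3 counts. Shares were compared after drawing 2500 UMIs from each cell, which left out 154 PCL, 162 UBM and 79 saline cells. Scaling factors for the alternatives came from edgeR 4.0.16 in R 4.3.3, with no model fitted. The ratio intervals and the 1.5-fold rule were tested on simulated Poisson counts of whole libraries, which carry no variation between libraries. The other steps were not tested in this way. Gene positions are from a GRCm38 annotation.

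The 10 members and the gene lists were chosen with earlier results of these data known. All members are named at any value, the partner chains and ligands too, and of the other lists the 2 highest and 2 lowest members by ratio among genes with at least 20 CPM. For each member the 3 genes most like it across clusters are named. A few genes that these rules select are not reported here. A difference of at least 1.5-fold in CPM stands in for a test. Alternatives were other scalings, each cell counted alike, equal weight for clusters, clusters or cells left out, other folds and minimums, and, added after seeing the data, ratios within clusters without cells over 10% mitochondrial UMIs and without the cell with the most UMIs of the gene.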

Additional observations from a re-analysis of the deposited data

Results flagged for a closer look

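Il10ra differed in direction between clusters for the same pair of libraries. Within FP1 it was 25.8 CPM in PCL and 11.3 CPM in UBM cells, a ratio of 2.27 (1.17 to 5.05) from 168 and 9 UMIs. Within RP2 it was 11.7 CPM in PCL and 30.4 CPM in UBM cells, a ratio of 0.384 (0.103 to 1.01) from 4 and 118 UMIs. The ratios lie past 1.5-fold on opposite sides. With 1 library per treatment the difference was not tested, and the second interval includes 1.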

How the results depend on the processing

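With 1 library per treatment no value has a replicate error, and the 341 saline cells set the widest intervals. At 2-fold in place of 1.5-fold, the members apart numbered 3 for UBM over saline in place of 6, and 0 for PCL over saline in place of 3. With clusters FP1 and RP3, the only ones with at least 50 cells in every library, weighted equally, the PCL over UBM count was 1 in place of 3, Il4ra UBM over saline was 1.81, Il4ra PCL over UBM was 0.900, Tgfbr2 PCL over saline was 0.826, and Csf2rb UBM over saline turned to 1.10. The causes were not tested. Of 240 alternative ratios over the libraries, 206 stayed within their counting interval, 33 moved beyond it and 1 turned round. Turning round was counted only for ratios of members counted as apart. Other ratios that crossed 1, such as Tgfbr2 PCL over UBM (0.734, and 1.20 with equal cluster weight), are not in that 1. All 144 alternative ratios within clusters stayed within it. Those left out only cells over 10% mitochondrial UMIs or the cell with the most UMIs of the gene. Other scalings were not tried within clusters, and Il1rl2 was not included there. Trimmed mean of M values scaling shifted the median log2 ratio of all genes by 0.14 for UBM over saline and by -0.11 for PCL over UBM. Relative to each, Il10ra and Csf2rb dropped under 1.5-fold for UBM over saline. Thinning moved 58 of 60 shares of cells, so shares are read only between thinned values. No paired analysis was possible because each treatment had 1 library.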
